A study of Rattus norvegicus with 6 samples.

Results

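A set of 149 probes of the rat hypothalamus was studied whose intensity was low after 2 days of heat and back near the control value after 30 days of heat, in rats of normal water balance (euhydrated). They were chosen from 884 probes on an expression array, of which 663 passed a filter on low values, so the members are 22.5% of the probes that could be chosen. The rule asked for an intensity after 2 days at least 2-fold below both the untreated control and the 30-day sample, and for a 30-day value less than 2-fold from the control. The 3 euhydrated samples therefore made the choice and are given only as a description. The 3 hypohydrated samples took no part in the fold rule and entered only the common normalization and the filter on the mean, so they are where the set is read out.

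The 6 samples of hypothalamus hold 1 condition each: untreated euhydrated controls, short-term heat acclimation (2 days), long-term heat acclimation (30 days), hypohydration by water deprivation to a 10% loss of body weight, and each heat stage together with that hypohydration. The sources used here do not give strain, sex, age or the temperature of the heat exposure, and some labels speak of rats before and during heat. The submitters' design text counts 9 arrays in each hydration state, while the table holds 3 columns for each. With 1 sample in a group no difference has a replicate check, and none below carries a p-value.

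The preoptic area of the hypothalamus integrates skin and core temperature and drives heat loss through vasodilation and evaporative cooling. Plasma osmolality is sensed by the circumventricular organs and by the magnocellular neurons of the supraoptic and paraventricular nuclei, and the latter release vasopressin. Water deprivation delays evaporative cooling, so both demands meet in this tissue. Heat acclimation is usually described as an early, transient phase under strong autonomic drive and a later, stable phase.

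The array's probe identifiers begin with R (508 probes) or RG (376 probes). All 884 were looked up among the names and accessions of the RefSeq rat gene table with 0 matches, so members are called by probe identifier and genes, positions, sequences and tissue markers were not analysed here. The prefix divided the set little: 93 of 389 R probes past the filter (23.9%) and 56 of 274 RG probes (20.4%) were members. Members were not gathered along the list of identifiers, since the next probe past the filter was a member for 20.1% of members and for 23.2% of other probes.

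In the euhydrated samples that defined the set, 191 probes were at least 2-fold lower at 2 days than in the control, which is 28.8% of the probes past the filter, and 185 (27.9%) were at least 2-fold lower at 2 days than at 30 days. Both conditions together held for 154 probes, of which R025, R283, R306, R625 and RG183 were dropped because the 30-day value was at least 2-fold from the control. A further 6 probes met the fold conditions but lay under the filter. The median intensity of the members, after quantile normalization, was 1.14 in the control, 0.236 after 2 days and 1.05 after 30 days of heat. At 2 days 29 members (19.5%) lay at the floor of 0.143, the value to which lower intensities were raised, so their folds are lower bounds. In bulk tissue, fewer cells of a type and less RNA per cell cannot be told apart.

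Members differed widely in how deep they went. R685 had 4.04 in the control, 0.146 at 2 days and 4.04 at 30 days, a value 27.6-fold lower at 2 days than on either side. R349 had 3.76, 0.148 and 3.44 in the same order. R675 had 3.44 in the control and 3.76 at 30 days and lay at the floor at 2 days, at least 24.1-fold below the control. These probes were among the brightest of the array without heat and among the dimmest after 2 days. R318, also at the floor at 2 days, had 2.55 in the control and 2.78 at 30 days. RG456 had 2.08 in the control, lay at the floor at 2 days and had 1.77 at 30 days, and RG094 had 2.24, 0.182 and 2.11. R656 had 4.43, 0.430 and 4.43, so it remained above most members at 2 days although it was 10.3-fold lower than before, and R628 had 2.89, 0.237 and 2.31. At the limit of the rule, the lower of the control and 30-day values was 2.02-fold above the 2-day value for R494 and RG373, 2.05-fold for R096 and 2.07-fold for R067. The nearest probes outside it were R135 and RG137 at 1.99-fold, RG388 at 1.99-fold and R597 at 1.98-fold.

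**Figure D1:**
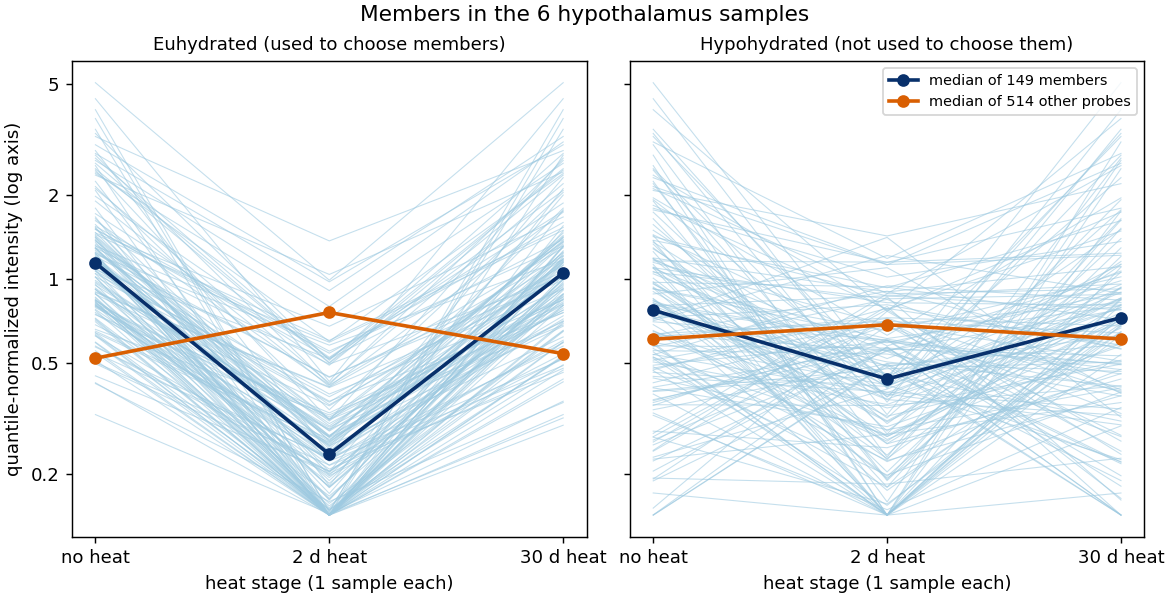
Quantile-normalized intensity (log axis) of each of the 149 members (thin lines) at no heat, 2 days and 30 days of heat, in euhydrated samples (left) and hypohydrated samples (right), with 1 sample at each stage; thick lines are the medians of the members and of the 514 other probes past the filter. The member median goes from 1.14 to 0.236 and back to 1.05 on the left, where the rule used it, and from 0.774 to 0.439 and 0.728 on the right.

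In the hypohydrated samples the members as a set were lower at 2 days too, but less deeply and not uniformly. The 2-day sample differed widely across the array. Of all probes past the filter, 25.5% were at least 2-fold lower and 23.2% higher than without heat, against 5.58% and 5.43% at 30 days. Heat at 2 days cannot be told apart from anything else that the 2-day samples share. The median intensity of the members was 0.774 without heat, 0.439 after 2 days and 0.728 after 30 days, against 0.610, 0.687 and 0.611 for the 514 other probes past the filter. Of the 149 members, 70 (47.0%) were at least 2-fold lower at 2 days than without heat, where 25.5% of all probes past the filter were, and 15 were at least 2-fold higher, where 23.2% of all were. Against 30 days, 64 members (43.0%) were at least 2-fold lower at 2 days, beside 25.2% of all probes past the filter, and 22 were at least 2-fold higher, beside 23.4%. The median log2 difference was -0.87 from no heat and -0.80 from 30 days, where the other probes had 0.19 and 0.09. The direction of the 2-day medians of the members was the same with median scaling and with the values as deposited. For the other probes the median from no heat was -0.065 as deposited. On the deposited scale the split from no heat was 81 members lower and 1 (R325) higher, on a scale where 32.1% of all probes were lower and 10.7% higher.

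Few members differed 2-fold between 30 days and no heat in the hypohydrated samples. The median log2 difference of the members was -0.12, and 7 members were at least 2-fold lower and 5 at least 2-fold higher, close to the 5.58% and 5.43% of all probes past the filter. The 5 higher ones, looked up after their values were seen, were R111, R334, R374, R537 and RG401. R111 had 0.230 without heat, 0.404 at 2 days and 0.855 at 30 days in the hypohydrated samples. With median scaling this median was 0.036, just above 0. With the values as deposited 16 members were lower and 0 higher at 30 days than without heat, beside 9.8% and 0.151% of all probes. On that scale the median of all probes was -0.24 log2 units.

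All conditions of the rule held again in the hypohydrated samples for 58 of the 149 members (38.9%), where 20.5% of all probes past the filter and 15.2% of the other probes met them. The same 58 were all the members with a 2-day value at least 2-fold below both other hypohydrated samples, which held for 21.1% of all probes past the filter. The 2-day value was the lowest of the 3 hypohydrated samples for 97 members (65.1%), against 43.3% of all probes past the filter. Among the 58, the hypohydrated samples had a median intensity of 1.27 in unheated rats, 0.246 after 2 days and 1.12 after 30 days. At 2 days the euhydrated sample had a median of 0.244 for the same probes. By contrast 78 members neither met the rule again nor were at least 2-fold higher at 2 days than both other hypohydrated samples. Their medians were 0.636, 0.572 and 0.570, which differed little between the stages, while single members did differ. At 2 days 12 of them were at least 2-fold lower and 2 higher than without heat, with log2 differences from -1.86 to 1.80. Against 30 days 6 were at least 2-fold lower and 9 higher at 2 days. These subsets were cut by the hypohydrated values themselves, so their levels are a description.

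**Figure D2:**
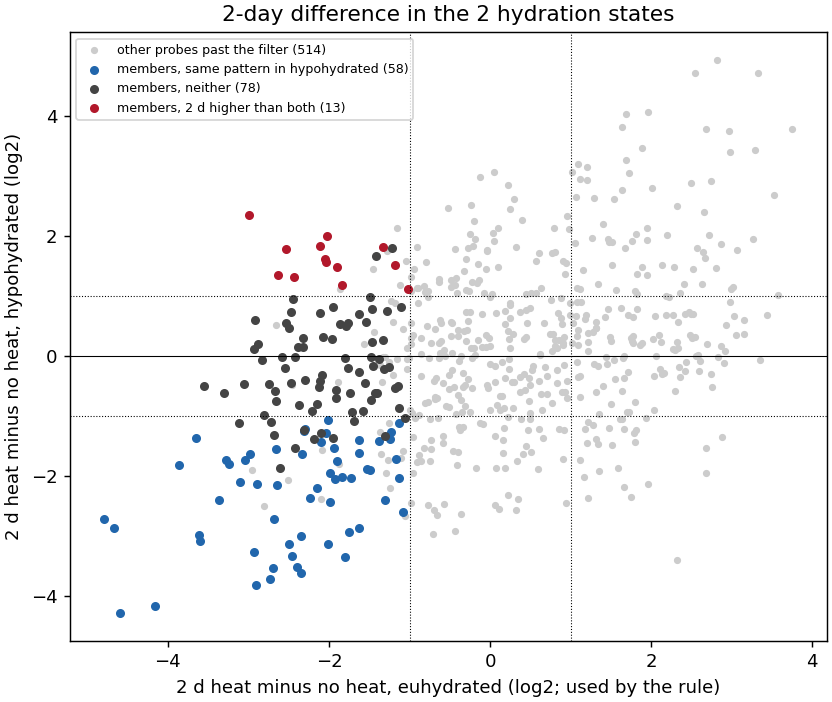
Log2 difference between 2 days of heat and no heat in euhydrated samples (horizontal, used by the rule) and in hypohydrated samples (vertical) for the 663 probes past the filter; dotted lines mark 2-fold. The 58 members that met the rule again are blue, the 13 that were at least 2-fold higher than both other hypohydrated samples are red and the 78 others are dark grey; all 149 members lie to the left by choice, and they spread from -4.28 to 2.34 on the vertical axis.

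R675 and R318 were the members with the largest differences at 2 days under hypohydration and were among the 8 deepest in the euhydrated samples. In the hypohydrated samples R675 had 2.78 without heat and 2.49 at 30 days and lay at the floor at 2 days, at least 19.4-fold and at least 17.4-fold lower. R318 had 2.55 without heat, lay at the floor at 2 days and had 3.10 at 30 days, at least 17.8-fold and at least 21.7-fold lower. Both were high in all 4 samples outside 2 days and at the floor in both samples of 2 days. The same floor in both 2-day samples was found for R023, R157 and R427, noted after their values were seen. R157 had 1.26 without heat and 0.810 at 30 days under hypohydration.

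Other members were lower at 2 days in the hypohydrated than in the euhydrated sample. RG437 had 2.24 without heat, 0.159 at 2 days and 2.66 at 30 days under hypohydration, 14.1-fold and 16.7-fold lower, against 7.49-fold below the control in euhydrated rats. R455 had 3.03, 0.230 and 2.71, which is 13.1-fold and 11.8-fold lower. RG339 had the highest intensity on the array in the control and at 30 days (5.05 each), with 0.992 at 2 days. Under hypohydration it had 4.43, 0.363 and 4.04, so its 2-day value was 12.2-fold and 11.1-fold lower. R366 held that highest rank in the hypohydrated samples instead, with 5.05 without heat and at 30 days and 0.439 between them, 11.5-fold lower than either. Quantile normalization gives the top probe of each sample the same value, so the agreement of 5.05 across samples is one of rank. R317 had 3.32, 0.328 and 3.44, and R641 had 2.20, 0.192 and 1.63 under hypohydration. R317 was thus 10.1-fold lower than without heat, while in the euhydrated samples it was 3.49-fold lower.

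All 8 members deepest in the euhydrated samples were also at least 2-fold lower at 2 days than both other hypohydrated samples. This held for 21.1% of all probes past the filter. These 8 were also bright in the unheated hypohydrated sample, from 0.967 (RG456) to 4.04 (R656), where the median of all probes past the filter was 0.634. The part of level in this was not tested. Among the 8, R675 and R318 were also among the 8 deepest under hypohydration. R685 had 2.49, 0.378 and 2.78 under hypohydration, 6.58-fold and 7.35-fold lower at 2 days. R349 had 3.24, 0.448 and 3.24, which is 7.24-fold lower than either side. RG456 was 3.53-fold and RG094 at least 7.89-fold lower than without heat, and R656 and R628 were 5.27-fold and 8.47-fold lower. Across all members, the share that met the rule again was set beside the depth of the euhydrated lowering, which the rule itself used. Depth is the excess of the lower of the control and 30-day values over the 2-day value, in log2 units. The share was 15 of 49 members (30.6%) at 1 to 1.5 and 12 of 33 (36.4%) at 1.5 to 2. At 2 to 2.5 it was 13 of 34 (38.2%), and at 2.5 or more 18 of 33 (54.5%). Probe level was not held equal across these bands, and a trend was not tested. Between the 2-day differences from no heat in the 2 hydration states, which share no sample, Spearman's rho was 0.27 across the 149 members and 0.26 across the 514 other probes, a description across probes that share 1 normalization.

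**Figure D3:**
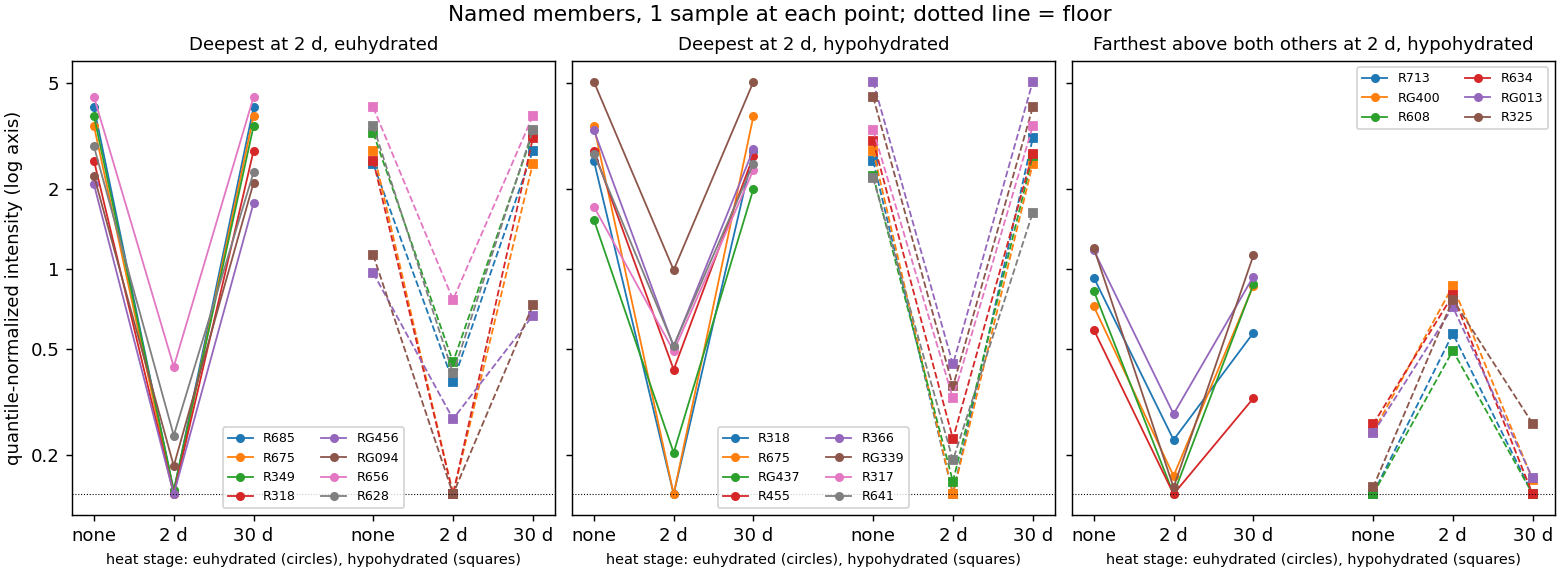
Quantile-normalized intensity (log axis) of named members in the 6 samples, euhydrated (circles, solid lines) and hypohydrated (squares, dashed lines), with the floor of 0.143 dotted; 1 sample stands at each point. The 8 members deepest at 2 days in euhydrated samples (left) and the 8 farthest below both other hypohydrated samples (middle) dip at 2 days in both states, and the 6 farthest above both other hypohydrated samples (right) dip in one state and peak in the other.

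A smaller group of members took the opposite course under hypohydration. For 13 members (8.72%) the 2-day value was at least 2-fold higher than both other hypohydrated samples, below the 17.9% of all probes past the filter for which this held. Under hypohydration their median intensity went from 0.224 in unheated rats to 0.604 after 2 days and 0.164 after 30 days, while in the euhydrated samples it was 0.779, 0.152 and 0.695. They were thus dim in the hypohydrated samples without heat and at 30 days, near the floor, and at a middling level at 2 days. R325 had 1.20, 0.152 and 1.12 in the euhydrated samples and 0.152, 0.768 and 0.263 in the hypohydrated samples, 5.07-fold and 2.92-fold higher at 2 days. R608 had 0.829 in the control and 0.876 at 30 days and lay at the floor at 2 days. Under hypohydration it was at the floor without heat and at 30 days and had 0.494 at 2 days.

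The same reversal was seen for RG400, with 0.725, 0.167 and 0.866 in the euhydrated and 0.244, 0.864 and 0.162 in the hypohydrated samples. RG013 had 1.18, 0.286 and 0.937 in the euhydrated and 0.242, 0.720 and 0.164 in the hypohydrated samples. R713 had 0.929, 0.229 and 0.576 in the euhydrated samples, and under hypohydration 0.573 at 2 days with 0.143 on either side. R634 had 0.592 in the control and 0.328 at 30 days, and under hypohydration 0.261 without heat and 0.799 at 2 days. All 13 were higher at 2 days than both other hypohydrated samples with median scaling and with the values as deposited too, but at least 2-fold against both for 8 and 1 of them. In the deposited values R325 was 2.14-fold and 2.43-fold higher at 2 days, and R608 was 1.93-fold higher than without heat. These were the largest deposited folds against no heat among the 13. The others lay between 1.05-fold (R117) and 1.85-fold (RG400).

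Hypohydration can also be set against euhydration at each stage, though each such difference uses a sample that chose the members. Without heat 39 members were at least 2-fold lower in the hypohydrated sample than in the control and 1 was at least 2-fold higher, where the rule's own use of the control favours lower values. Of all probes past the filter, 17.6% were lower and 19.8% higher. The count of lower members was 86 with median scaling, where 25.3% of all probes were lower. As deposited it was 21, where 4.07% of all probes were lower. The 1 higher member after quantile normalization, named after its value was seen, was RG298, with 1.08 in the control and 2.31 in the unheated hypohydrated sample. At 30 days 41 members were lower with hypohydration, where 17.8% of all probes were. This count was 78 with median scaling, beside 25.6% of all probes, and 30 as deposited, beside 7.39%. At 2 days 66 members were at least 2-fold higher with hypohydration and 8 at least 2-fold lower, where 15.5% and 11.9% of all probes were. In the order of no heat, 2 days and 30 days, the median log2 differences of the members were -0.52, 0.85 and -0.55. With median scaling the signs were the same (-1.14, 1.20 and -1.03). The deposited scale also kept them (-0.35, 1.28 and -0.35), and there all probes had medians of 0.43, 0.024 and 0.41. Of the 39 members lower without heat, 11 were among the 13 that peaked at 2 days under hypohydration and 25 among the 78 with neither pattern. The unheated hypohydrated sample enters both of these cuts, and a low value in it favours both, so the overlap is a description only.

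The level of a probe in the unheated hypohydrated sample, which is itself a term of the 2-day difference, moved with that difference. The 663 probes past the filter were divided into 3 groups of 221 by that level. In the highest group 51 of 66 members (77.3%) were at least 2-fold lower at 2 days than without heat under hypohydration, against 32.9% of 155 other probes. In the middle group these were 15 of 43 members (34.9%) and 25.8% of 178 other probes. In the lowest group 4 of 40 members (10.0%), R023, R468, RG419 and RG509, and 1.10% of 181 other probes were lower. A probe under 0.286, which is 2-fold above the floor, could not be called lower, and only 19 of these members and 87 of these other probes lay at or above it. The highest group held 66 of the 149 members, and the median level within it was 1.37 for members and 1.12 for other probes, so the groups do not make the levels equal. With median scaling the shares from the lowest to the highest group were 25%, 34.9% and 59.1% for members and 9.94%, 24.7% and 21.9% for other probes. On the deposited scale they were 27.5%, 53.5% and 71.2% for members and 14.4%, 33.7% and 29.7% for other probes. On both scales the share of the other probes was thus not larger in the highest than in the middle group. Across members, the levels in the unheated and 30-day hypohydrated samples had a Spearman's rho of 0.86, while the unheated and 2-day hypohydrated samples had -0.01, and across other probes these were 0.79 and 0.08. The part of this in the set's 2-day difference was not tested.

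**Figure D4:**
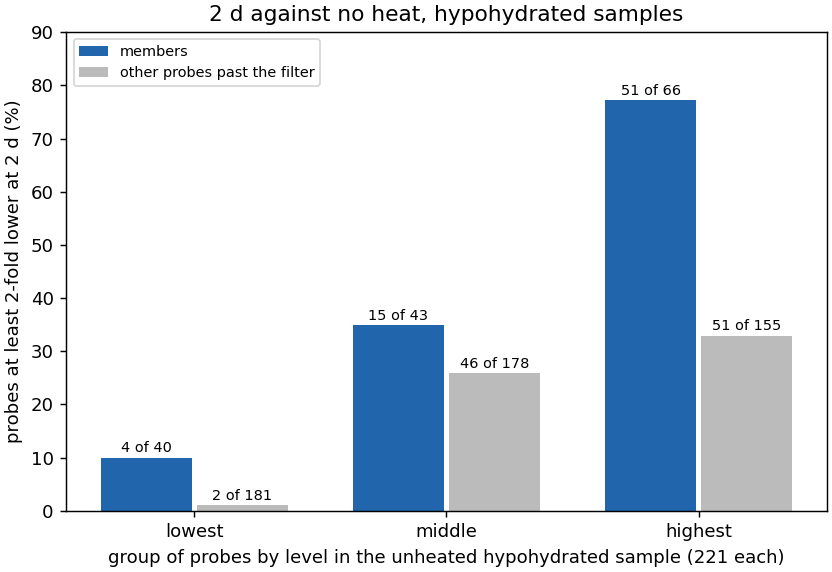
Percent of probes at least 2-fold lower at 2 days of heat than without heat in the hypohydrated samples, for members (blue) and other probes past the filter (grey), in 3 groups of 221 probes by level in the unheated hypohydrated sample; counts stand above the bars. Members reach 10.0%, 34.9% and 77.3% from the lowest to the highest group, and other probes 1.10%, 25.8% and 32.9%.

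A pair of related sets shows where the members stand. The 42 probes that were at least 2-fold lower at 2 days than the control in euhydrated rats but failed another condition were read out in the same way, with no test against the members. Under hypohydration 15 (35.7%) of them were at least 2-fold lower at 2 days than without heat, beside 25.5% of all probes past the filter, and 12 (28.6%) met all conditions of the rule, beside 20.5%. Their euhydrated lowering was also shallower, with a median log2 difference of -1.29 from the control against -2.09 for the members. In the unheated hypohydrated sample they were dimmer too, with a median of 0.597 against 0.774. The part of either in these shares was not tested. The same rule with its direction turned chose 105 probes that were transiently high at 2 days in euhydrated rats. Of these 38 (36.2%) were at least 2-fold higher at 2 days than without heat under hypohydration, where 23.2% of all probes past the filter were, and 28 (26.7%) were at least 2-fold higher than both other samples, beside 17.9%. Lowered members thus repeated their direction against no heat at 47.0% and raised probes at 36.2%, and the difference between these shares was not tested.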

How the data were processed

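Per the labels, radioactive cDNA was made from total RNA with Clontech primers. The authors deposited 1 table of processed intensities, 884 probes by 6 samples. It is read as linear intensity because all values are positive and skewed (0.00868 to 5.58). What each column was divided by, any centring and whether the values are ratios are unknown here. The sources name no array, scanner, background correction or normalization.

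Columns were quantile normalized with ties averaged (Python 3.11.15, numpy 2.4.6; checked against limma 3.58.1). This removes any overall shift between samples. Values under the 10th percentile (0.143) were raised to it, and probes whose mean before flooring exceeded the 25th percentile (0.338) were kept. As a check of the code, the rule was run on data simulated from the control sample alone with added noise. Those columns share the control's levels, unlike the samples here, so the check does not bear on the results. Depth does not apply, and the single sample in each group limits the precision.

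Members and settings were chosen with earlier results of these data known. Named members are the 8 farthest below the lower of control and 30 days in euhydrated samples, those whose 2-day value lay farthest below (8) or above (6) the nearer of the other 2 hypohydrated samples, and the 4 on each side of the 2-fold limit. No probe matched a gene, so the planned gene lists and cell type markers could not be used. Alternatives changed the scaling, floor, filter and fold.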

Additional observations from a re-analysis of the deposited data

Results flagged for a closer look

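In 13 members the 2-day value was at least 2-fold lower than both other samples in euhydrated rats and at least 2-fold higher than both others in hypohydrated rats, with the 2 hydration states apart in direction. These are 8.72% of the members, below the 17.9% of all probes past the filter that were at least 2-fold higher than both others in hypohydrated rats. With the values as deposited, 1 of the 13 (R325) was still at least 2-fold higher than both. The difference between the states was not tested, and each rests on 1 sample per stage. Those named by rule had log2 differences between 2 days and no heat under hypohydration of 2.34 for R325, 2.00 for R713, 1.83 for RG400, 1.79 for R608, 1.61 for R634 and 1.57 for RG013. R608 lay at the floor without heat, so its value depends on the floor. R713 (0.143) and R325 (0.152) lay just above the floor of 0.143 without heat. In the deposited values the 2-day folds over no heat were smaller for all 6. They were 2.14 for R325, 1.57 for R713, 1.85 for RG400, 1.93 for R608, 1.625 for R634 and 1.51 for RG013. The other 7 were R117, R160, R267, R485, R622, R705 and RG373.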

How the results depend on the processing

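Of 89 values recomputed under alternatives, 75 stayed within the limit set around the main value and 14 moved past it. A turn of direction was to be counted only where the main median reached 1 log2 unit. No main median did, so such a turn could not be counted. The median of 30 days against no heat did change sign with median scaling, and it is among the 14. For shares the limit is the 95% binomial interval over members, and for medians a 95% interval from the ranked member values. These intervals cover probes and not animals. For the member count the limit is a 1.5-fold change. The members' share exceeded that of the other probes in all 43 shares compared. These shares all come from the same 6 samples and from largely the same members, so they are not separate support. With median scaling and members chosen anew (172), the median log2 difference under hypohydration was -0.49 for 2 days against no heat and 0.027 for 30 days against no heat, on a scale where all probes had medians of 0.31 and 0.040. With the values as deposited and members chosen anew, 56.25% were at least 2-fold lower than without heat, 52.8% lower than at 30 days and 50% met all conditions of the rule, beside 30.9%, 29.7% and 26.9% of all probes, and the median against 30 days was -1.16. With the 149 members kept and the values as deposited, 48.3% met all conditions, beside 27.6% of all probes. Quantile normalization within each hydration state gave 34.4% lower than at 30 days, beside 20.5%. A 3-fold rule left 96 members, all among the 149. Calls at 1.5-fold gave 57.0% against no heat and 55.0% against 30 days, beside 34.2% and 35.4% of all probes. Calls at 3-fold gave 30.9% and 28.9%, beside 14.6% and 14.3%, with 26.2% meeting all conditions, beside 11.6%. The 172 probes of median scaling held 141 of the 149 members, and the deposited values chose 144, which held 131. Leaving out members at the floor and centring the deposited or median-scaled differences on all probes, both chosen after seeing the data, moved no value past its interval. No paired analysis was possible because the labels give no replicate numbers, and no replicate could be left out of a group of 1 sample. Heat differences were not paired across hydration states, since the euhydrated ones chose the members.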
